A study of Homo sapiens with 8 samples.

Results

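Of the 37811 replication origins mapped in ORC2KO cells on chromosomes 1 to 22 and X, 4806 (12.7%, 95% Wilson interval 12.4% to 13.1%) overlapped no origin of WT, ORC1KO, or ORC5KO cells by a single base. These ORC2KO-only origins are described here, out of 142864 origins in the lists of the 4 lines. Each was chosen by the presence of a peak in ORC2KO and its absence in the other lists, so the reads of ORC2KO and WT at these positions are given as a description, without a test. For comparison, 2466 of 30195 WT origins (8.17%), 4296 of 33530 ORC1KO origins (12.8%), and 6449 of 41328 ORC5KO origins (15.6%) were called in that line alone.

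The samples were 8 short nascent strand sequencing (SNS-seq) libraries of HCT116, an established human colon cancer cell line, with 2 biological replicates of each of 4 lines. All 4 lines share the p53-/- background, including the line called WT, so that none of them has a functional p53 gene. ORC1KO, ORC2KO, and ORC5KO cells carry in addition a CRISPR-Cas9 knockout of the gene for that subunit of the origin recognition complex. The study names 1 line per knockout, and a figure caption calls cells of these lines clones. How each line was derived from a clone is not described in the sources used here. The knockout and the history of its line therefore cannot be told apart. The study discusses whether a trace of a shortened ORC2 protein persists in the ORC2KO line, which these data do not measure. The files hold reads in origins only, and the loss of ORC2 itself could not be checked in them.

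In dividing human cells, the origin recognition complex (ORC) binds DNA and, together with CDC6 and CDT1, loads the MCM2-7 helicase, a step called licensing. ORC2 is one of its subunits. Licensed helicases are activated in S phase, and short RNA-primed strands leave from each active origin. SNS-seq purifies these strands and reads their positions. Human origins have no shared consensus sequence, are often rich in G and C with more G on one strand, and lie frequently near CpG islands and sequences able to form G-quadruplexes, four-stranded structures built from runs of G.

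The ORC2KO-only origins with the largest gain of reads over WT carried long, irregular arrays of G and T on one strand. The windows of 120 bases with the highest absolute GC skew, (G-C)/(G+C), are shown for 4 of the 8 origins with the highest log2 fold among those with at least 100 reads, on the strand with more G, 5′ to 3′, from the hg38 (GRCh38) reference. Capitals mark runs of 10 or more bases that are all G or T. The first and the fourth lie outside annotated genes, with C1orf174 and CPN2 as the nearest protein-coding genes, the second lies outside annotated genes near CRB2, and the third lies in an intron of TNS3.
chr1:3930213-3930332 (minus strand): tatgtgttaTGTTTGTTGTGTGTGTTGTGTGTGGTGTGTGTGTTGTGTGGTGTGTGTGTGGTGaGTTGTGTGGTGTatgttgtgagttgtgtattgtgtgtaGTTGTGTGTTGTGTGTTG
chr9:123347361-123347480 (plus strand): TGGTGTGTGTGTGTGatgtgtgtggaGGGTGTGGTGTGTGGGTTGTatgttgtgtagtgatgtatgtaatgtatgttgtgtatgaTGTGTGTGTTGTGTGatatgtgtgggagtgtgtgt
chr7:47474591-47474710 (minus strand): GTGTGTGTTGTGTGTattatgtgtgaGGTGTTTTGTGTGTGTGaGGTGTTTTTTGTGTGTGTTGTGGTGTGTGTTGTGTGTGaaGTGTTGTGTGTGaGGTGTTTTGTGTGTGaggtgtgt
chr3:194327286-194327405 (minus strand): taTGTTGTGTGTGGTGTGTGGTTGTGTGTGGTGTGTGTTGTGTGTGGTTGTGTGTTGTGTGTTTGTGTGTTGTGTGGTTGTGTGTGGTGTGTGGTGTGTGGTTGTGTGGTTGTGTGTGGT

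The origins with the highest absolute GC skew were of more than one kind. The first line shows a GT-rich array of another form, outside annotated genes with KCNF1 as the nearest protein-coding gene, and its capitals again mark runs of G and T. The second and the third are tracts of A and G in introns of DENND2A and ELSPBP1, with capitals for runs of 10 or more A or G. The fourth, outside annotated genes, holds GGAT, the reverse complement of the repeat ATCC, and its capitals mark 4 or more uninterrupted copies, from whichever base they start. The last line is shown for contrast: an origin outside annotated genes, nearest to PDZRN4, whose log2 fold equals the median of the ORC2KO-only origins. It was chosen after the values were seen, and its capitals mark runs of G and T as in the first.
chr2:10953690-10953809 (plus strand): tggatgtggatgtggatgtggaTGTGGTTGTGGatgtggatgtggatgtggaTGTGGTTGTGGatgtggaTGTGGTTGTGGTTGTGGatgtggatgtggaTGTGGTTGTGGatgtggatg
chr7:140591692-140591811 (minus strand): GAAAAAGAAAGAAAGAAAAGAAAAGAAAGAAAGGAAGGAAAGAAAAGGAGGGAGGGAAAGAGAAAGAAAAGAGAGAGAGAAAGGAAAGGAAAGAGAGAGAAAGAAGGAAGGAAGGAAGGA
chr19:48023068-48023187 (plus strand): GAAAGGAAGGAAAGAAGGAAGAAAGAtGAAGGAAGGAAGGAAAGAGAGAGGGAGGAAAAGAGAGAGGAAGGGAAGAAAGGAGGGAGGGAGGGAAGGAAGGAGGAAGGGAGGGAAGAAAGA
chr16:86889122-86889241 (plus strand): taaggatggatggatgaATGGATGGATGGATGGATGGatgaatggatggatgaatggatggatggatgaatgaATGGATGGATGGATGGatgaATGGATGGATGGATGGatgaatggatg
chr12:41637061-41637180 (minus strand): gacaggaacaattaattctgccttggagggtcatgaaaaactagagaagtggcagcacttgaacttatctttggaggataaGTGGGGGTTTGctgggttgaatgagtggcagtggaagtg

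Most ORC2KO-only origins were weak peaks whose signal differed little between ORC2KO and WT. Reads in each origin were scaled to RPM, reads relative to all reads of that line in the table of joined WT and ORC2KO origins, multiplied by 1000000. The table held 6640888 WT and 7808290 ORC2KO reads. The median ORC2KO-only origin had 68 reads in WT (interquartile range 55 to 85) and 88 in ORC2KO (75 to 109), or 10.2 and 11.3 RPM. The median log2 fold of ORC2KO over WT was 0.13 (interquartile range -0.05 to 0.35), against -0.06 in origins called in both lines and 0.10 in ORC2KO origins absent from WT but shared with ORC1KO or ORC5KO. It was 0.063 in the 1059 ORC2KO-only origins with at least 200 reads of both lines together. ORC2KO was higher in 3307 of the 4806 (68.8%), and in 64.8% of those absent from WT but shared. By the 1.5-fold threshold in RPM, 589 (12.3%, Wilson 11.4% to 13.2%) were up and 6 (0.125%) were down, where 4.65% of all 44170 rows were up and 3.58% were down. Of those absent from WT but shared, 11.6% were up. The choice of these origins used the same contrast, so nothing is read from the excess. Replicates are merged in the counts, so no test with replicates could be run, and all intervals cover counting error only.

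A peak absent from the WT list did not mean a position without WT reads. Every ORC2KO-only origin had at least 4 WT reads. Per kb of origin, 2224 (46.3%) lay below 158 WT reads, the 5th percentile of origins called in WT, and 534 (11.1%) lay above 232, the median of those origins.

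Beyond these weak peaks, 26 ORC2KO-only origins (0.541%) held at least 300 WT reads. They were wide (median 926 bp) and GC-rich (median 64.2%), and their log2 folds ranged from -0.43 to 0.32 with a median of 0.01. The nearest origin of another line was at least 20474 bp away. The origin with the most ORC2KO reads, chr5:176132362-176133575, lies in a lncRNA gene and had 742 WT and 959 ORC2KO reads, a log2 fold of 0.14 (Clopper-Pearson -0.00 to 0.28). An origin across a start site of FAM117A, chr17:49763301-49764348, had 674 and 803 reads, and one across a start site of EEF2KMT, chr16:5097748-5098858, had 488 and 661. These 3 positions were strong in both lines and were listed in ORC2KO alone. The fourth by reads, chr17:18410746-18412034 in the lncRNA gene LINC02076, had 546 and 638 reads, and 4 of 5 words of 31 bases taken from it occur elsewhere in the genome.

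**Figure D1:**
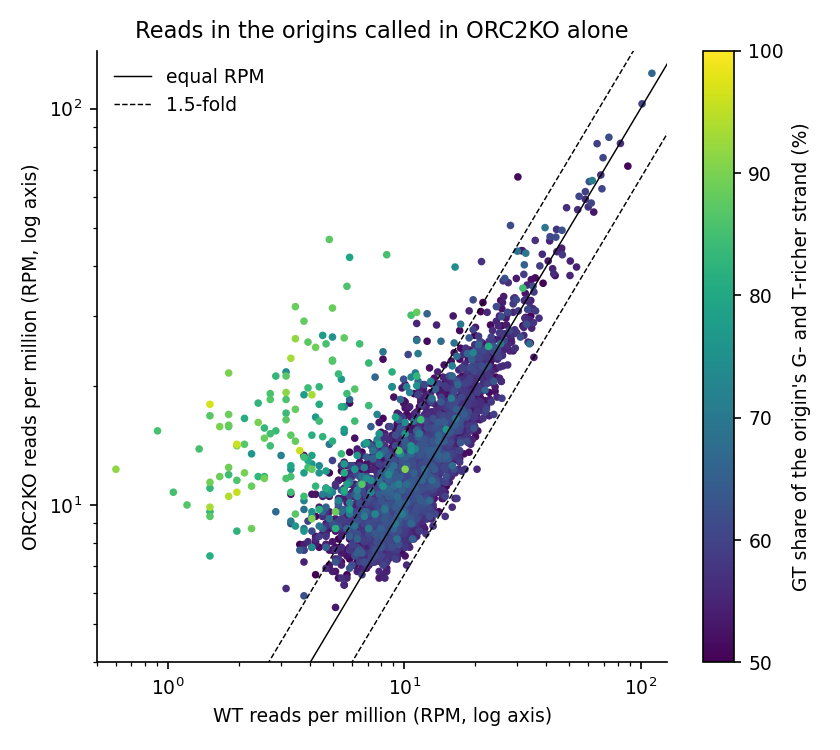
Each point is 1 of the 4806 origins called in ORC2KO alone, with WT RPM on the horizontal and ORC2KO RPM on the vertical log axis, coloured by the GT share of its G- and T-richer strand; the solid line marks equal RPM and the dashed lines 1.5-fold. The strongest origins lie along the line of equal RPM, and the origins farthest above it are those with a high GT share.

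The gains in reads differed with the base composition of an origin. The GT share is the percentage of G and T on whichever strand has more of them, and cannot be under 50%. Among ORC2KO-only origins it had a median of 55.1%. The median log2 fold was 0.14 under 55% (2361 origins), 0.08 from 55% to 60% (1683 origins), and 0.12 from 60% to 65% (474 origins), with no rise over these bins. From 65% to 70% it was 0.40 (92 origins). From 70% to 75% it reached 0.96 (49 origins), from 75% to 80% it was 1.19 (35 origins), and at 80% or more it was 2.32 (112 origins, interquartile range 1.70 to 2.76). The 80% threshold was set after the values were seen.

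The 112 GT-rich origins had 4 to 211 WT reads with a median of 23, and 58 to 365 ORC2KO reads with a median of 119. Per kb, the median was 37.1 reads in WT and 218 in ORC2KO. Of all rows of the table, 0.172% had a lower WT value and 37.7% a lower ORC2KO value. Since these origins needed a peak in ORC2KO and none in WT, only the ORC2KO values have a floor set by peak calling, and nothing is read from the difference of the ranks. In the other 4694 ORC2KO-only origins the medians were 163 and 210 reads per kb. Of the 112, 107 (95.5%, Wilson 90.0% to 98.1%) were up 1.5-fold, compared with 482 of the other 4694 (10.3%). At the same GT share, 176 of 191 rows absent from WT but shared (92.1%, Wilson 87.4% to 95.2%) were up. Over all rows of that GT share it was 304 of 361 (84.2%). The 107 supplied 18.2% of all ORC2KO-only origins that were up. At 4-fold, 78 ORC2KO-only origins (1.62%) were up, beside 0.276% of all rows and 44 of the 9318 absent from WT but shared (0.472%). Of the 78, 71 were among the 112, and all had a GT share of at least 70%.

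The 4 origins whose arrays are shown first had the highest log2 folds of the ORC2KO-only origins with at least 100 reads. At chr1:3930184-3930681, 4 reads were counted in WT and 96 in ORC2KO, a log2 fold of 4.35 (Clopper-Pearson 2.95 to 6.26). The origin near CRB2, chr9:123346993-123347595, had 6 and 120 reads, a log2 fold of 4.09 (2.92 to 5.56). In TNS3, which encodes a focal adhesion protein, chr7:47474327-47475129 had 12 and 168 reads, and near CPN2, chr3:194327286-194327921 had 10 and 140 reads, both with a log2 fold of 3.57. These folds are the extremes of the set, selected on the same reads.

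The next 4 by fold were of the same composition. The origin chr4:7130767-7131293, with SORCS2 as the nearest protein-coding gene, had 10 WT and 131 ORC2KO reads. In an intron of KISS1, which encodes the precursor of the kisspeptin hormones, chr1:204195285-204195677 had 9 and 108 reads. The widest of the 8, chr2:20164838-20166070, near SDC1, had 32 and 365 reads, a log2 fold of 3.28 (2.76 to 3.85). In an intron of FAM53A, chr4:1652571-1652974 had 11 and 123 reads. The GT share of these 8 origins ranged from 85.2% to 96.9%. The array near KCNF1, chr2:10953690-10954115, had 0 copies of TGTGTG, with 12 and 132 reads and a log2 fold of 3.23 (2.37 to 4.21).

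On the GT-rich strand, the 112 origins together were 45.3% G, 41.1% T, 9.49% A, and 4.10% C. The plus strand was the GT-rich one in 49 and the minus strand in 63. The motif TGTGTG, counted with overlaps on the strand that has more copies, occurred at least 10 times in 99 of the 112 (88.4%), with a median of 46.5 copies. Among all ORC2KO-only origins, 196 (4.08%) had 10 or more copies, and among ORC2KO origins shared with any other line, 801 of 33005 (2.43%) did. Where 1 other line shared the origin it was 3.78% (Wilson 3.33% to 4.30%), which overlaps the interval of the ORC2KO-only origins (3.55% to 4.68%). At least 1 copy was common in ORC2KO-only origins and in those shared with any other line, in 33.0% and 36.6%. Perfect repeats of a unit of 1 to 6 bases over 20 bases or more were present in 6 of the 112. Most of the arrays were therefore interrupted, as in those shown first, while the array near KCNF1 held such a repeat. A count of letters is a description and does not identify a bound factor.

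The GC skew and the TA skew, (T-A)/(T+A), had the same sign in all 112. The GC content of the 112 had an interquartile range of 46.3% to 52.1%. At any GC content in that range, a GT share of at least 80% forces the same sign. Nothing is therefore read from the count of 112. Among the other ORC2KO-only origins the GC skew and the TA skew had the same sign in 1035 of 4694 (22.05%). In these others, a strand with more G thus mostly had more A than T. Median absolute GC skew was 0.856 in the 112 and 0.313 in the others, and median absolute TA skew was 0.609 and 0.170.

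**Figure D2:**
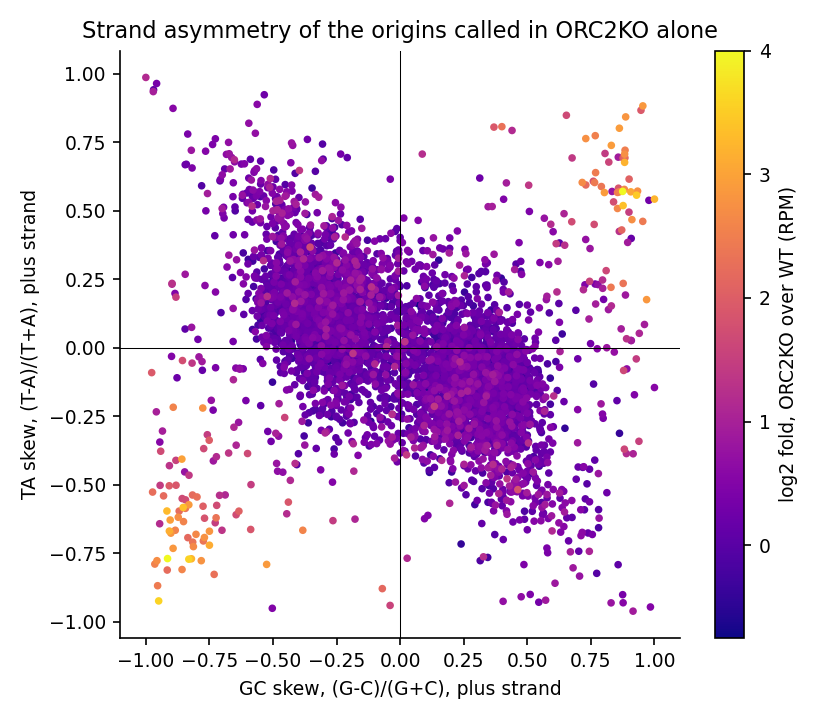
Each point is 1 of the 4806 origins called in ORC2KO alone, with GC skew on the horizontal and TA skew on the vertical axis, both on the plus strand, coloured by log2 fold of ORC2KO over WT. Most points lie where the skews have opposite signs, and the largest log2 folds lie toward the 2 corners where both have the same sign.

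Tracts rich in A and G were not accompanied by gains of this size. The AG share is defined like the GT share for A and G. At 80% or more, 91 ORC2KO-only origins had a median of 54 WT and 87 ORC2KO reads and a median log2 fold of 0.51, and 36 (39.6%, Wilson 30.1% to 49.8%) were up 1.5-fold. Over all rows with such an AG share, 80 of 503 (15.9%) were up. The tract in DENND2A, a gene for a regulator of RAB GTPases, chr7:140591692-140592008, had 28 and 73 reads, a log2 fold of 1.15 (0.50 to 1.83). The tract in ELSPBP1, chr19:48023064-48023542, had 50 and 84 reads, a log2 fold of 0.51 (-0.01 to 1.05). The ATCC array at chr16:86889122-86889515 had 52 and 90 reads, a log2 fold of 0.56 (0.05 to 1.08).

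Rows outside the ORC2KO-only set had higher log2 folds at high GT share too, at lower values. Among rows called in both ORC2KO and WT, the median log2 fold was -0.08 both under 55% (8210 rows) and at a GT share of 55% to 60% (10413 rows), and went to 0.39 at 70% to 75% (338 rows) and 0.48 at 80% or more (56 rows). Over the same bins it was 0.08, 0.04, 0.72, and 1.31 in rows called in ORC2KO and in ORC1KO or ORC5KO, and not in WT. Over all rows with a GT share of at least 80%, 304 of 361 (84.2%) were up 1.5-fold. These classes were also set by the WT and ORC2KO lists, and the medians describe regions within 1 pair of merged columns, and regions are not replicates of a line.

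**Figure D3:**
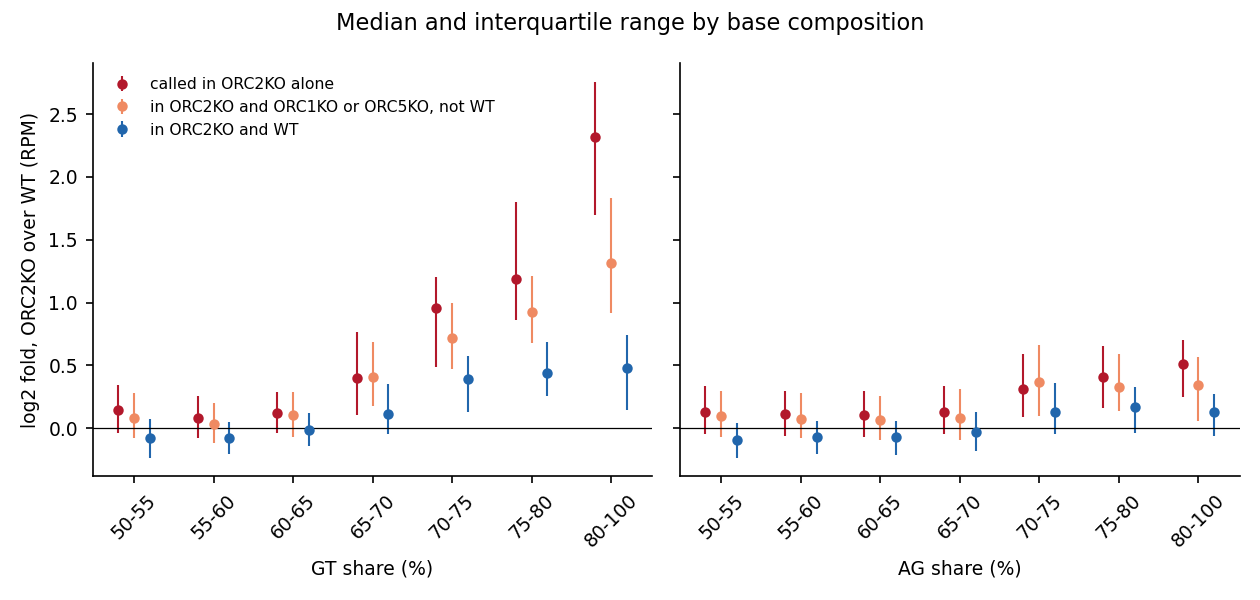
Points are median log2 folds of ORC2KO over WT in RPM and bars interquartile ranges over origins, for bins of GT share (left) and AG share (right), in the 3 classes of origins called in ORC2KO named in the legend. The medians at a GT share of 80% or more are 2.32, 1.31, and 0.48, and at an AG share of 80% or more 0.51, 0.34, and 0.13.

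GT-rich origins were found in the other lines too. With a GT share of at least 80%, there were 99 in the WT list (0.328%), 262 in ORC1KO (0.781%), 360 in ORC2KO (0.952%), and 185 in ORC5KO (0.448%). Of the 360 in ORC2KO, 112 were in no other list, 96 were in ORC1KO only besides, 84 in both ORC1KO and ORC5KO, 11 in ORC5KO only besides, and 57 in WT with or without others. Among the origins of a single line, the GT-rich share was 2.33% in ORC2KO (112 of 4806, Wilson 1.94% to 2.80%), 0.698% in ORC1KO (30 of 4296, 0.490% to 0.995%), and 0.124% in ORC5KO (8 of 6449, 0.063% to 0.245%). In WT it was 0 of 2466, which allows a share of up to 0.122% by the limit of 3 counts that is used here for counts of 0. In their own tables, the 30 ORC1KO-only origins had a median log2 fold over WT of 1.68 and the 8 ORC5KO-only origins 0.86. All 3 tables use the WT libraries, so these values are not independent of each other.

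Seen from the whole ORC2KO list, the share of origins that were ORC2KO-only was not a steady function of GT content. It was 17.7% (2361 of 13375) at a GT share under 55%, 6.16% (92 of 1493) from 65% to 70%, and 31.1% (112 of 360, Wilson 26.5% to 36.1%) at 80% or more. In the other bins it lay between 6.85% and 10.6%.

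None of the 112 GT-rich origins overlapped an exon of a protein-coding gene, a count of 0 that allows a share of up to 2.68%, while 436 of the other 4694 (9.29%) did. Protein-coding genes held 46 of the 112 (41.1%, Wilson 32.4% to 50.3%) and 53.3% of the others. CpG islands overlapped 2 of the 112. Within 5 Mb of a chromosome end lay 39 (34.8%, 26.63% to 44.01%), compared with 12.4% of the others. They were spread over 22 chromosomes, with 18 on chromosome 2. At least 3 of 5 words of 31 bases recurred elsewhere in the genome in 7 of the 112 (6.25%) and in 11.6% of the others. Of the 4 arrays shown first, none had more than 1 such word.

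Apart from the GT-rich arrays, ORC2KO-only origins were narrower and lower in GC content than shared ones, and both width and GC content were higher the more lines shared an origin. Median width was 414 bp in ORC2KO-only origins, 447 bp where 1 other line shared the origin (6026 origins), 494 bp where 2 did (8780), and 614 bp where all 3 did (18199). Median GC content was 49.1%, 50.8%, 52.0%, and 55.9%. Against all 33005 shared ORC2KO origins, Cliff's delta, which is 0 for equal distributions and -1 when every value is lower, was -0.452 for width and -0.305 for GC content. Origins with a GC content under 40% made up 10.2% of ORC2KO-only and 3.06% of shared origins.

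The classes also differed in signal, and their distances in width and GC content were smaller at matched reads. Among origins with 75 to 109 ORC2KO reads, the interquartile range of the ORC2KO-only ones, median width was 417 bp in ORC2KO-only and 441 bp in other origins, compared with 414 bp and 578 bp without that limit. Median GC content there was 49.3% in 2458 ORC2KO-only and 50.8% in 7720 other origins, compared with 49.1% and 53.8% over all. A GC content under 40% was found in 9.32% and 5.25% within the limit. Median absolute GC skew was 0.317 and 0.337 within the limit. Origins with a GT share of at least 80% made up 1.55% and 0.415% there.

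Median absolute GC skew was 0.319 in ORC2KO-only origins and 0.349 in shared ones, with a Cliff's delta of -0.113. Median absolute TA skew was in the other order, 0.174 and 0.146, with a Cliff's delta of 0.113. A sequence of 25 bases with a G4Hunter score, a measure of the potential to form a G-quadruplex, of at least 1.52 was present in 80.2% (Wilson 79.1% to 81.3%) of ORC2KO-only and 89.9% (89.6% to 90.3%) of shared origins. ORC2KO-only origins are narrower, and in windows of 500 bp around the midpoint the shares were 81.0% and 87.4%.

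**Figure D4:**
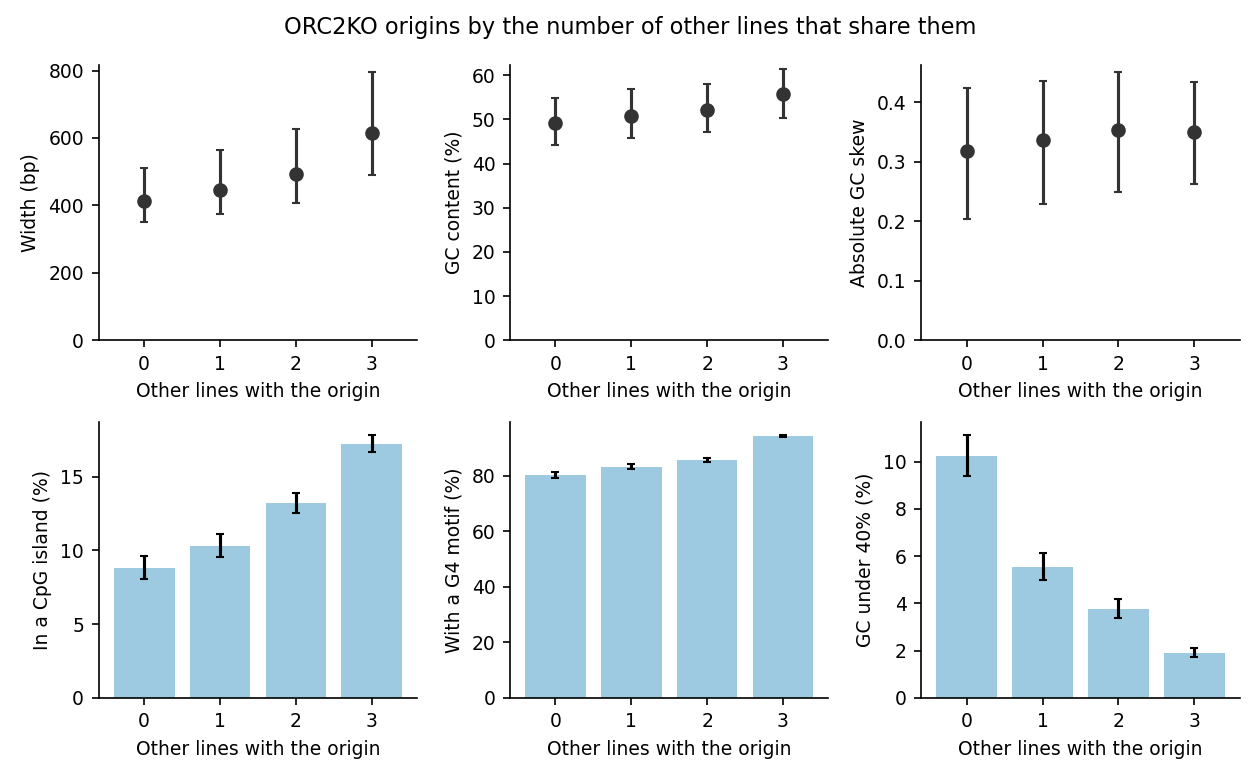
ORC2KO origins are grouped on the horizontal axis by the number of other lines that share them, with medians and interquartile ranges over origins in the upper row and shares with 95% Wilson intervals in the lower row. From 0 to 3 other lines, median width goes from 414 to 614 bp, the share in a CpG island from 8.80% to 17.2%, and the share with a GC content under 40% from 10.2% to 1.90%.

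Among ORC2KO-only origins, the median log2 fold was highest at low GC content. The 491 with under 40% GC had a median log2 fold of 0.23, and 15.1% were up 1.5-fold. The 597 with at least 60% GC had a median of 0.06, and 3.52% were up. Over all rows of the table, the medians in the same ranges of GC content were 0.06 and -0.06, and 8.16% and 0.919% were up.

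Simple repeats were distributed unevenly between the classes. Tracts of at least 50 A and G bases occurred in 10.8% of ORC2KO-only and 6.13% of shared origins, with 7.09% where 1 other line shared the origin. A tetranucleotide of A and G, AAAG, was the longest perfect repeat in 31 ORC2KO-only origins (0.645%) and in 42 shared ones (0.127%). The repeat ATCC, in at least 4 exact copies in any rotation on either strand, was in the other order, in 38 ORC2KO-only (0.791%, Wilson 0.577% to 1.08%) and 915 shared origins (2.77%, 2.60% to 2.96%). Origins shared with 1 other line (0.996%) and those called in ORC1KO alone (1.05%) or ORC5KO alone (0.760%) had shares near that of the ORC2KO-only ones. At least 3 of 5 words of 31 bases recurred elsewhere in the genome in 550 ORC2KO-only origins (11.4%) and in 7.31% of shared ones. The 550 had a median log2 fold of 0.23 and the remaining 4256 of 0.12.

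Beside the origins called in ORC1KO alone, those called in ORC2KO alone had a higher GC content (49.1% against 46.7%), a lower absolute GC skew (0.319 against 0.394), and more often a G-quadruplex motif (80.2% against 60.3%). Cliff's delta of ORC2KO-only against ORC1KO-only origins was 0.193 for GC content and -0.267 for absolute GC skew. ORC5KO-only origins were closer, with a median GC content of 50.1%, an absolute GC skew of 0.333, and a motif in 76.1%. WT-only origins had a median GC content of 51.5%, an absolute GC skew of 0.309, and a motif in 80.6%. Tracts of at least 50 A and G bases were in 3.86% of ORC1KO-only and 2.88% of ORC5KO-only origins, below the 10.8% in ORC2KO-only ones.

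ORC2KO-only origins were mostly intronic or intergenic. By GENCODE release 44, 436 (9.07%, Wilson 8.29% to 9.92%) overlapped an exon of a protein-coding gene, 2110 (43.9%) lay in introns of such genes, 685 (14.3%) lay in other annotated genes, and 1575 (32.8%) in none. Shared ORC2KO origins overlapped exons in 16.8% (16.4% to 17.2%). CpG islands were overlapped by 423 (8.80%, 8.03% to 9.64%) of the ORC2KO-only and 14.9% of the shared origins. Within 1 kb of a protein-coding start site lay 459 (9.55%) and 13.5%. The other single-line sets also lay below the shared origins. Their shares in exons, CpG islands, and near start sites were 10.1%, 8.05%, and 8.50% in ORC5KO-only origins. In ORC1KO-only origins they were 4.56%, 3.28%, and 4.28%, and in WT-only origins 12.5%, 12.1%, and 10.8%.

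Most ORC2KO-only origins lay several kb or more from any origin of the other lines. The median distance to the nearest was 17667 bp (interquartile range 5256 to 62795 bp). Within 1 kb lay 328 (6.82%), and 762 (15.9%) lay 100 kb or more away. The latter had a median GC content of 45.8% and a median log2 fold of 0.10, compared with 52.9% and 0.14 for the 328. Within 10 kb of another ORC2KO-only origin lay 1206 (25.1%). With distances taken between midpoints, the share within 1 kb of another line's origin was 3.89%.

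The rule turned on few bases at its margin. The ORC2KO-only origin closest to another line's origin, in an intron of SPOCK1 at chr5:137505696-137506144, was 3 bp away and had 91 WT and 135 ORC2KO reads. The next, in introns of SRRM3 and ADGRE3, were 55 and 74 bp away, with 105 and 180 reads and with 68 and 82 reads. Just outside, the origin at chr14:95375120-95375602 overlapped an ORC1KO origin by 24 bp and had 50 WT and 88 ORC2KO reads. Origins at chr17:68035992-68036333 and chr15:28953716-28954140 overlapped ORC5KO origins by 74 and 102 bp and had 57 and 99, and 72 and 76 reads. The ORC2KO reads were 82 to 180 in the 3 inside and 76 to 99 in the 3 outside.

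At the other end of the log2 folds, ORC2KO-only origins with fewer reads in ORC2KO than in WT were rarely below the threshold. The lowest, chr19:57171637-57171994, outside annotated genes near DUXA, had 135 WT and 96 ORC2KO reads, a log2 fold of -0.73 (Clopper-Pearson -1.12 to -0.34). An intronic origin of SNX29 had 106 and 77 reads, one of PROS1, the gene of the anticoagulant protein S, had 111 and 81, and one in a UTR of PTCHD4 had 99 and 73. Each was listed as an ORC2KO origin although its RPM was lower than in WT.

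Chromosomes differed in the share of their ORC2KO origins that were ORC2KO-only, from 6.62% on chromosome 19 (185 of 2795, Wilson 5.76% to 7.60%) to 18.2% on chromosome 6 (271 of 1487, 16.3% to 20.3%). In some large regions the reads of all origins differed between the lines. In the first 20 Mb of chromosome 2, the median log2 fold over all 545 rows was 0.38, and 135 of 525 ORC2KO origins (25.7%, 22.2% to 29.6%) were ORC2KO-only, against 342 of 2331 (14.7%) on the rest of the chromosome. In the first 25 Mb of chromosome 6, the median over 234 rows was -0.95, and 0 of 48 ORC2KO origins were ORC2KO-only, which allows a share of up to 6.25%. In 22 blocks of 5 Mb the median over all rows lay beyond 0.25 on the log2 scale in either direction. They held 1165 of the 44170 rows and 854 of the 37811 ORC2KO origins. Of these 854 origins, 180 (21.1%, Wilson 18.5% to 23.9%) were ORC2KO-only, compared with 12.7% of all ORC2KO origins. The blocks thus held 180 of the 4806 ORC2KO-only origins, and 58 of the 589 that were up. The part of these regional shifts in the shares was not tested.

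**Figure D5:**
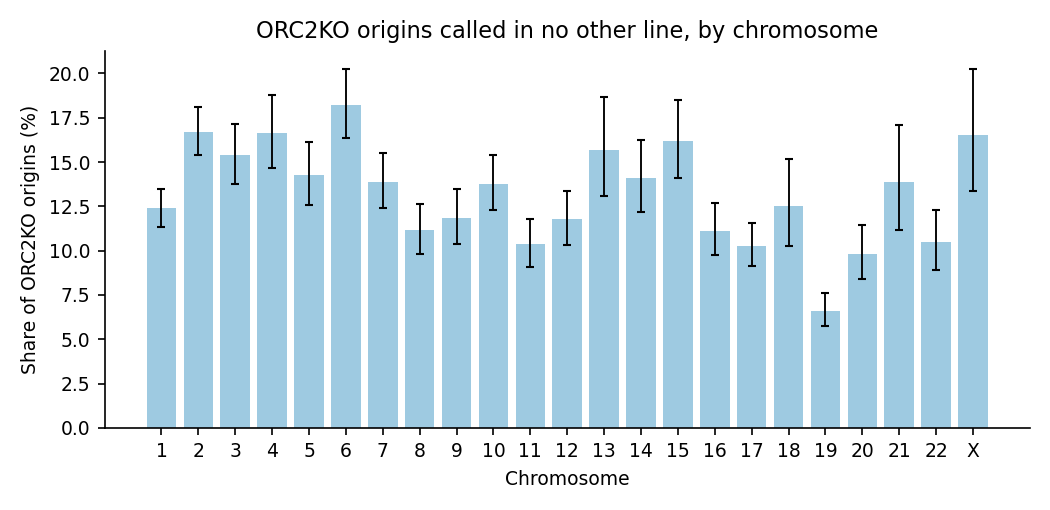
Bars are the share of ORC2KO origins on each chromosome that were called in no other line, in percent, with 95% Wilson intervals for counting error. Chromosome 6 has the highest share at 18.2% and chromosome 19 the lowest at 6.62%.

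Among single genes, GRIK4, which encodes a kainate-type glutamate receptor subunit, held the most ORC2KO-only origins, 7 of its 23 ORC2KO origins. MYT1L, a neuronal transcription factor gene in the first 20 Mb of chromosome 2, held 6 of 19, and SNX29, a sorting nexin gene, 6 of 17. These genes are 477 to 598 kb long. In all, 1877 of 19970 protein-coding genes held at least 1 ORC2KO-only origin.

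A list of 29 genes covered ORC, CDC6, CDT1, MCM, GINS, and other licensing and firing factors, among them GMNN. Of these genes, 10 held any ORC2KO origin, 14 in all, and 2 held an ORC2KO-only origin each. These 2 of 14 (14.3%, Wilson 4.01% to 39.9%) stand beside 11.6% in all protein-coding genes. In MCM10, which acts in helicase activation, chr10:13167137-13167651 had 92 WT and 118 ORC2KO reads, a log2 fold of 0.13 (Clopper-Pearson -0.28 to 0.53). In GINS1, a subunit of the active helicase, an intronic origin that also lies in NINL had 50 and 84 reads, a log2 fold of 0.51 (-0.01 to 1.05).

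Of 20 large genes at common fragile sites, regions that tend to break under replication stress, 6 held 13 ORC2KO-only origins among 162 ORC2KO origins (8.02%, Wilson 4.75% to 13.2%), compared with 11.6% of the ORC2KO origins in all protein-coding genes. PTPRN2, a receptor-type tyrosine phosphatase gene, held 1 of its 76. DLG2, a postsynaptic scaffold gene, WWOX, a gene for a WW-domain oxidoreductase, and DMD, the dystrophin gene, each held 2, which were all the ORC2KO origins in them. The 15 ORC2KO-only origins in both lists of genes had a median log2 fold of 0.22 and ranged from -0.41 to 1.21. Of the 15, 3 were up, where 12.3% of all ORC2KO-only origins and 4.65% of all rows were. The lowest lies across a start site of AUTS2, with 334 WT and 296 ORC2KO reads. The highest lies in an intron of DLG2, with 36 and 98 reads, a log2 fold of 1.21 (0.65 to 1.80).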

How the data were processed

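SNS-seq reads of 8 samples, 2 biological replicates of each of 4 lines, were processed by the authors. Per the labels, the submitters' notes name Trim Galore 0.6.4, Bowtie, MACS2, bedtools, and GRCh38. The authors called peaks in each replicate and deposited, for each line, the peaks found in both, as positions without height. They also deposited whole-number read counts for WT and one knockout in the joined origins of both lines, with replicates merged. The counting tool and the handling of duplicate reads are not given in the sources used here, so reads may include PCR copies. The number of per-sample value columns left unused was 0.

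An overlap of 1 bp or more counted as shared. Positions are 1-based hg38 coordinates. The 4806 origins each matched a row of the WT and ORC2KO table exactly. Log2 folds are of RPM, scaled to all reads of the line in the table, other contigs included (1.06% in both), without a filter or pseudocount. Shares have 95% Wilson intervals, and folds of single origins 95% Clopper-Pearson intervals, for counting error only. For a share of 0, the upper limit is 3 counts of the total. CpG islands had over 200 bp, at least 50% GC, and an observed over expected CpG above 0.6. G4Hunter scores used windows of 25 bases. Exons, genes, and start sites came from GENCODE release 44.

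The origins and gene lists described were chosen with earlier results of these data known. Named origins were, with at least 100 reads, the 8 highest and 4 lowest log2 folds, the 4 with the most ORC2KO reads, and the 4 with the highest absolute GC skew. The 3 nearest to another line, the 3 with the smallest overlap among those left out, and the 3 genes with the most were added, as were origins in the listed genes, of which the 8 with the most ORC2KO reads were examined singly. The alternatives covered overlap, scaling, read filters, GC trend, shifted regions, thresholds, and windows. The calls were run on simulated counts without variation between replicates or selection by peaks, which cannot give their error in these data. The design foresaw no test between lines, since replicates are merged. Counts and intervals were computed in Python 3.11.15 (pandas 2.3.3, numpy 2.4.6, scipy 1.17.1). Sequence was read with pysam 0.24.0 and samtools 1.23.1, and word searches used numba 0.67.0. TMM factors came from edgeR 4.0.16 in R 4.3.3. Figures were drawn with matplotlib 3.10.9.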

Additional observations from a re-analysis of the deposited data

Results flagged for a closer look

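Contigs other than chromosomes 1 to 22 and X were left out of the report. On them, 33 ORC2KO origins (12.8% of those there) overlapped no origin of another line, a higher number than the 10 (5.03%) in WT, which is what singled this result out. There were 17 (7.23%) in ORC1KO and 15 (6.28%) in ORC5KO. On the main chromosomes the share in ORC2KO was 12.7%. The difference was not tested.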

How the results depend on the processing

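No paired analysis was possible because the counts merge the replicates and the lists join them, and for the same reason no replicate could be left out. The median log2 fold of the ORC2KO-only origins, 0.13, was 0.17 with edgeR TMM scaling, 0.063 in the 1059 origins with at least 200 reads, 0.15 with the GC trend removed, 0.12 without shifted 5 Mb blocks, and 0.12 without origins with copies elsewhere. It remained above 0 under each of these, which the choice of these origins favours, so nothing is read from it. The share up, 12.3%, was 13.4% with TMM scaling, 11.2% with at least 100 reads, 8.59% with at least 200 reads, 4.41% at 2-fold, 11.3% without origins with copies elsewhere, and 10.3% without GT-rich origins. In windows of 500 bp around the midpoint, median GC content was 48.6% and median absolute GC skew 0.286. The median log2 fold of the GT-rich origins, 2.32, was 1.67 at a GT share of 70% and 2.06 at 75%. The cause was not tested. The settings on copies elsewhere and on GT share were chosen after seeing the data. The number down, 6, was 2 with at least 200 reads and 0 at 2-fold. Against other ORC2KO origins, the difference in median GC content was -4.70 percentage points and -1.44 at matched ORC2KO reads. The number of ORC2KO-only origins was 4478 to 4811 under other overlap rules. That of GT-rich ones, 112, was 98 under another overlap rule and 105 in windows of 500 bp. The median ORC2KO-only origin has 68 WT reads, which limits the precision of single folds.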
